A study of Mus musculus with 9 samples.

Results

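Fatty acid oxidation and its control by PPARα were followed through 8 genes: Ppara, Cpt1a, Acadl, Acadm, Acadvl, Ehhadh, Hadha and Pdk4. They were taken by symbol from the deposited count table, where all 8 were among the 46095 rows. RNA-seq had been run on colon IECs (intestinal epithelial cells), with 4 libraries from Smad4Vil-KO mice and 5 from Smad4Vil-KO;Setd2Vil-KO mice, and the question of the comparison was what the additional loss of SETD2 changes in epithelium that already lacks SMAD4. All mice carried Villin-Cre and floxed Smad4 on a C57BL/6J background, so that Smad4 was deleted in both genotypes and Cre acted only in the intestinal epithelium, and the second genotype carried floxed Setd2 as well. Every mouse had received AOM, a carcinogen, at 10 mg/kg and 8 weeks of age, and 2% DSS, which damages the lining of the colon, and IECs were released with EDTA at 10 days. No group with intact Smad4 or without AOM/DSS was analysed here.

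Long-chain fatty acids are burned in mitochondria after CPT1 has coupled them to carnitine, in cycles of dehydrogenation, hydration, oxidation and thiolysis. Very long and branched chains are first shortened in peroxisomes. PPARα is a nuclear receptor that binds fatty acids, pairs with RXR and switches on the genes of both routes, of ketogenesis and of fatty acid transport. In the intestine these genes are known for handling dietary fat in the small intestine, whereas colonocytes draw on butyrate made by bacteria, which is burned by the same mitochondrial cycle.

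The libraries held 12487129 to 17120202 counts. Setd2 was at 99.0 to 120 CPM, which are counts scaled to the size of the library, in the Smad4Vil-KO libraries and at 53.8 to 86.9 CPM in the Smad4Vil-KO;Setd2Vil-KO libraries, and it fell by 0.77 ± 0.14 on the log2 scale (SE, adjusted p = 0.00756). Smad4 RNA was still counted in both genotypes, at 54.2 to 92.6 CPM and 38.2 to 114 CPM. Smad4Vil-KO;Setd2Vil-KO replicates 2 and 5 were highest of their genotype in both genes. They had 114 and 98.6 CPM of Smad4, above every Smad4Vil-KO library, and 86.9 and 75.9 CPM of Setd2. Epithelial markers (Epcam, Cdh1 and 6 others) summed to 10193 to 11491 CPM and 9930 to 11734 CPM, and leukocyte markers to 61.7 to 168 CPM and 55.5 to 118 CPM. Markers of colonocytes summed to 12171 to 14638 CPM against 4790 to 10022 CPM. Of these 12 genes 4 were lower at an adjusted p under 0.05 in edgeR's test, where 6.54% of all genes were. One of these 4 was Muc2, a mucin gene of goblet cells, at 6133 and 1999 CPM on average, and the other 11 markers summed to 6707 to 8356 CPM against 3120 to 8152 CPM, with overlap. Markers of small intestinal enterocytes summed to 436 to 510 CPM against 488 to 1333 CPM. Of 9 tested genes 5 were higher by the same threshold, where 6.76% of all genes were. Y-linked genes had over 100 counts in Smad4Vil-KO;Setd2Vil-KO replicates 1, 2 and 5 and at most 28 in the other 6 libraries. The X-linked Xist, named after its values were seen, had 5 to 6 counts in those replicates and 17833 to 26617 in the other 6 libraries. All Smad4Vil-KO libraries were thus on 1 side of this split and the second genotype on both, so that it was not balanced between the genotypes.

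The bases just before the RefSeq starts of 4 of the genes are shown because these genes mark both ends of the result: Pdk4 and Ppara had the smallest p-values of the 8 between the genotypes, Ehhadh followed Ppara from library to library, and Cpt1a had the smallest difference. RefSeq held a start for all 8 genes. The sequences are from GRCm38.p6, in the direction of the gene, and are the longest stretch within the 250 bases before the start that no GENCODE M21 exon covers. They lie at chr6:5496310-5496528 on the minus strand for Pdk4, chr15:85735714-85735775 on the plus strand for Ppara, chr16:21787835-21788084 on the minus strand for Ehhadh and chr19:3323051-3323284 on the plus strand for Cpt1a. For Ppara and Cpt1a all 250 bases lie inside the gene bounds of GENCODE M21, where these genes start further ahead than in RefSeq. Capitals mark the core nuclear receptor motif AGGTCA on either strand (TGACCT where the strand is reversed).
Pdk4: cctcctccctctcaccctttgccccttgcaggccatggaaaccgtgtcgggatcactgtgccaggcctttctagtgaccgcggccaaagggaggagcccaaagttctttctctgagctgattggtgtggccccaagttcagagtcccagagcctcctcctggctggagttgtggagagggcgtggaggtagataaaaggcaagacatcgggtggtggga
Ppara: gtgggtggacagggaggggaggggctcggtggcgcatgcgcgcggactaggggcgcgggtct
Ehhadh: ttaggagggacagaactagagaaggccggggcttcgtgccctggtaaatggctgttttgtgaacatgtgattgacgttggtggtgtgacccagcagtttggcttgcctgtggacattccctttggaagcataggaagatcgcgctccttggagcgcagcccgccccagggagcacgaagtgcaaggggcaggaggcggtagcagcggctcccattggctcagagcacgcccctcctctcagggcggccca
Cpt1a: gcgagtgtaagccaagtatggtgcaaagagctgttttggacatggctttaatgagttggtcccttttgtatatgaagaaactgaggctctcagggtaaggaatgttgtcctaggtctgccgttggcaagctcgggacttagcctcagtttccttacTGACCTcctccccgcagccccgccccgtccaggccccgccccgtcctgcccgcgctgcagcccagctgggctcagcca
This core motif stood once before Cpt1a, 94 to 89 bases ahead of its RefSeq start. Over the full 250 bases it was found before 3 of the 8 genes (Acadm, Acadvl and Cpt1a) and before 14% of all 32851 RefSeq starts. The direct repeat that PPARs bind with RXR, searched strictly as AGGTCA followed after any 1 base by another AGGTCA on either strand, was in none of the 8 windows and in 0.0335% of all windows, and each copy within such a repeat counts in the first search as well. The E-box CACGTG and the D-box TTATGTAA, which circadian factors bind, were in none of the 8 and in 6.02% and 0.819% of all windows. Such matches describe letters in these windows only.

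No gene of the 8 passed an adjusted p of 0.05 between the genotypes in edgeR's quasi-likelihood test, where 13.3% of the 14593 genes tested did. At an unadjusted p under 0.05 there were 2, Ppara and Pdk4, both with higher levels in Smad4Vil-KO;Setd2Vil-KO mice, where 15.3% of all genes were past that threshold in that direction. DESeq2 called 1 of the 8, Pdk4, and limma-voom called 1, Ppara, where they called 19.2% and 20% of all genes. The level in the Smad4Vil-KO;Setd2Vil-KO libraries overlapped that of the Smad4Vil-KO libraries for each of the 8 genes, while 8.34% of all genes were higher in every Smad4Vil-KO;Setd2Vil-KO library and 8.87% lower. The median log2 fold change of the 8 was 0.10, with 5 above 0, and that of all genes was -0.00059. In bulk RNA, a difference in the number of cells of a type and a difference in RNA per cell cannot be told apart.

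**Figure D1:**
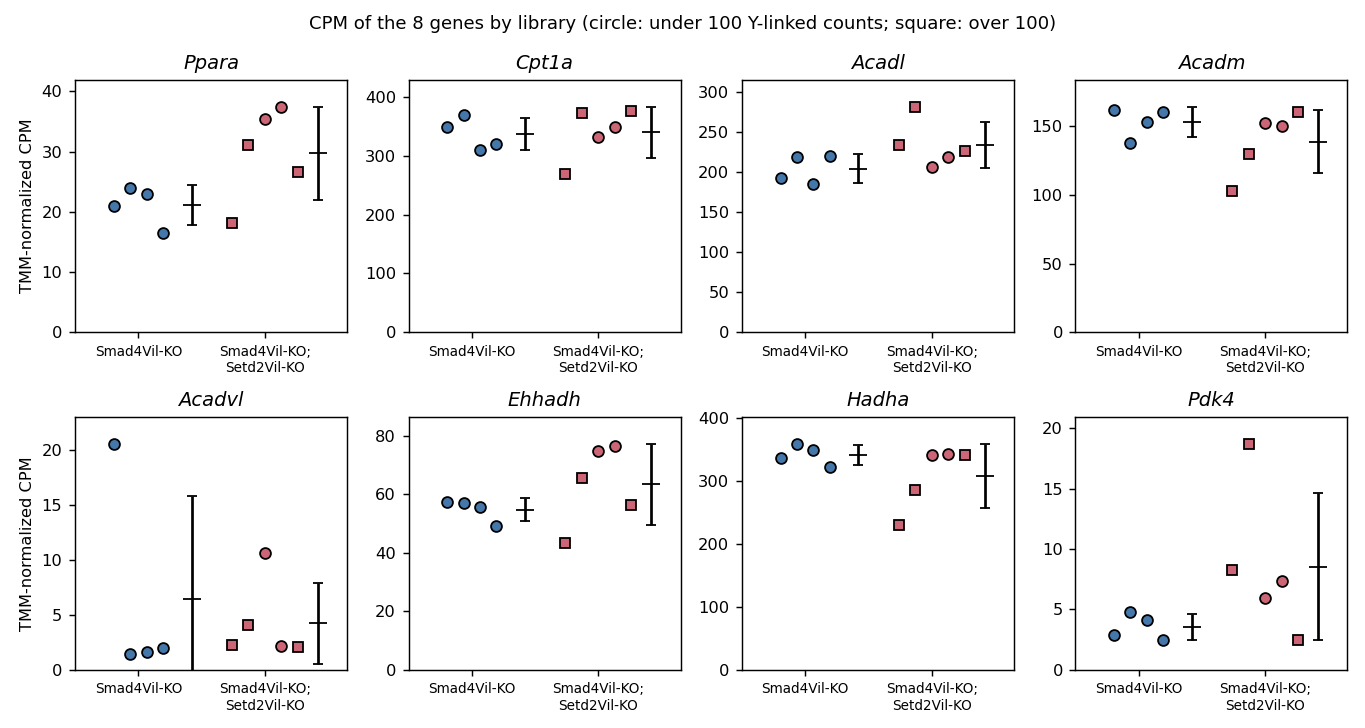
TMM-normalized CPM of the 8 genes in each library, with 4 Smad4Vil-KO libraries in blue and 5 Smad4Vil-KO;Setd2Vil-KO libraries in red; squares are libraries with over 100 Y-linked counts, and the bars to the right of each group are the mean and SD. The groups overlap in all 8 panels, Acadvl is high in 1 library of each genotype (20.6 and 10.7 CPM), and Pdk4 reaches 18.7 CPM in Smad4Vil-KO;Setd2Vil-KO replicate 2; the lower end of the Acadvl bar is cut at 0.

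Ppara encodes the receptor itself and lies at chr15:85734983-85802819 (GRCm38, gene bounds of GENCODE M21 here and for the genes that follow). Its level was 21, 24.0, 23.0 and 16.5 CPM in Smad4Vil-KO replicates 1 to 4, and 18.2, 31.0, 35.4, 37.5 and 26.6 CPM in Smad4Vil-KO;Setd2Vil-KO replicates 1 to 5. In 4 of the 5 Smad4Vil-KO;Setd2Vil-KO libraries Ppara stood above every Smad4Vil-KO library, and only Smad4Vil-KO;Setd2Vil-KO replicate 1 lay among them. The log2 difference was 0.49 ± 0.20 (SE, 95% interval 0.054 to 0.93), which is 1.40-fold, with an adjusted p of 0.123 in edgeR's test. Without Smad4Vil-KO;Setd2Vil-KO replicate 1 it was 0.63 with an adjusted p of 0.0246, so that this library decided the call. In the 6 libraries where Y-linked counts were 100 or fewer, 4 against 2, the difference was 0.79 (adjusted p = 0.00584 in edgeR's test). With a term for Y-linked counts over all 9 it was 0.78 (adjusted p = 0.0402, edgeR). This term marked only Smad4Vil-KO;Setd2Vil-KO replicates 1, 2 and 5. Its difference therefore rests on the same 4 and 2 libraries and is not a separate result.

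Pdk4 encodes a kinase that shuts off pyruvate dehydrogenase and so spares glucose while fatty acids are burned, and it is a known target of PPARs (chr6:5483351-5496309). It was scarce in these cells: 45, 81, 67 and 31 counts in Smad4Vil-KO replicates 1 to 4, or 2.88, 4.81, 4.11 and 2.46 CPM. In Smad4Vil-KO;Setd2Vil-KO replicates 1 to 5 it was 8.25, 18.7, 5.93, 7.38 and 2.48 CPM, from 129, 263, 85, 94 and 32 counts. The first 4 of these exceeded all Smad4Vil-KO libraries and replicate 5 was at their lower end. The log2 difference was 1.26 ± 0.47 (SE, 95% interval 0.21 to 2.30), or 2.39-fold, with an adjusted p of 0.103 in edgeR's test, and DESeq2 gave an adjusted p of 0.0331. Replicate 2 alone held 263 of these counts, and without it the difference was 0.75 (adjusted p = 0.204), while without replicate 5 it was 1.5 (adjusted p = 0.0226, edgeR). The same Smad4Vil-KO;Setd2Vil-KO replicate 2 had the highest summed level of the small intestinal enterocyte markers, 1333 CPM, and of the circadian clock genes, 1066 CPM. These clock genes summed to 618 to 687 CPM in Smad4Vil-KO libraries and to 713 to 1066 CPM in all 5 Smad4Vil-KO;Setd2Vil-KO libraries. In edgeR's test 7 of 16 tested were called higher and 2 lower, where 6.76% of all genes were called higher and 6.54% lower. The sum adds both directions: Arntl and Npas2, named after their values were seen, fell by 1.16 and 1.43 on the log2 scale. The part of the enterocyte markers or the clock genes in Pdk4 and Ppara was not tested.

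Cpt1a, the carnitine acyltransferase that admits long-chain fatty acids to mitochondria and sets the pace of their oxidation, had nearly the same mean in both genotypes (chr19:3322334-3385733). It was at 349, 369, 309 and 319 CPM in the Smad4Vil-KO libraries and at 270, 373, 332, 349 and 375 CPM in the Smad4Vil-KO;Setd2Vil-KO libraries. The lowest value was again that of Smad4Vil-KO;Setd2Vil-KO replicate 1, and the other 4 lay within or just above the range of the Smad4Vil-KO libraries. The difference of 0.014 ± 0.11 on the log2 scale (adjusted p = 0.945, edgeR) had a 95% interval of 0.857-fold to 1.19-fold.

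The acyl-CoA dehydrogenases, which take the first step of each cycle and differ in the chain length they prefer, were 3 of the 8 genes. Acadl, the long-chain enzyme (chr1:66830839-66863277), was at 193, 219, 186 and 220 CPM in Smad4Vil-KO libraries and at 234, 282, 206, 219 and 227 CPM in Smad4Vil-KO;Setd2Vil-KO libraries. Its highest value, Smad4Vil-KO;Setd2Vil-KO replicate 2, was the library that was also highest in Pdk4, and the difference was 0.19 ± 0.10 on the log2 scale (adjusted p = 0.222, edgeR). Acadm, the medium-chain enzyme (chr3:153922357-153944632), was at 161, 137, 153 and 160 CPM and at 102, 129, 152, 150 and 160 CPM. Only Smad4Vil-KO;Setd2Vil-KO replicates 1 and 2 lay below the Smad4Vil-KO libraries, and the difference was -0.14 ± 0.12 (adjusted p = 0.463, edgeR).

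Acadvl, the very long-chain enzyme at the inner mitochondrial membrane (chr11:70010183-70015411), was counted only sparsely. It had 321, 24, 27 and 25 counts in Smad4Vil-KO replicates 1 to 4, or 20.6, 1.42, 1.66 and 1.98 CPM, and 35, 57, 153, 28 and 27 counts in Smad4Vil-KO;Setd2Vil-KO replicates 1 to 5, or 2.24, 4.05, 10.7, 2.20 and 2.09 CPM. A single library of each genotype stood far above the rest. In the annotation 1151 of the 2686 exonic bases of Acadvl, 42.9%, are also exonic in Dvl2, a gene counted 11 to 22 times per library, and how the authors' counting treated reads in shared bases or used strand is not given in the sources used here. Of the other 7 genes, only Hadha shared exonic bases with another gene, 0.859% of them. The log2 difference of Acadvl was -0.59 ± 0.83 (adjusted p = 0.662, edgeR) and became 1.35 (adjusted p = 0.193, edgeR) without Smad4Vil-KO replicate 1, so that its direction rested on that library.

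Hadha and Ehhadh both encode enzymes that carry out the middle steps of the cycle, the former as the alpha subunit of the mitochondrial trifunctional protein and the latter as the peroxisomal bifunctional enzyme. Hadha (chr5:30118304-30155162) was at 337, 359, 350 and 322 CPM in Smad4Vil-KO libraries and at 230, 286, 343, 343 and 342 CPM in Smad4Vil-KO;Setd2Vil-KO libraries. Replicates 1 and 2 of the latter were the only ones below the Smad4Vil-KO range, and the difference was -0.15 ± 0.12 (adjusted p = 0.429, edgeR). Ehhadh (chr16:21761287-21787807) was at 57.4, 56.8, 55.7 and 49.0 CPM and at 43.3, 65.6, 74.8, 76.4 and 56.4 CPM. Here Smad4Vil-KO;Setd2Vil-KO replicates 2, 3 and 4 lay above all Smad4Vil-KO libraries, replicate 5 among them and replicate 1 below, and the difference was 0.21 ± 0.15 (adjusted p = 0.374, edgeR). Over the same 6 libraries with few Y-linked counts Ehhadh differed by 0.47 (adjusted p = 0.00687, edgeR, 4 libraries against 2). With the term for Y-linked counts the estimate rests on the same 4 and 2 libraries and was again 0.47. Ehhadh was then not called (adjusted p = 0.0743, edgeR). In those 6 libraries Hadha differed by 0.0080, Acadm by -0.016 and Cpt1a by 0.023, none of these 3 past the threshold.

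**Figure D2:**
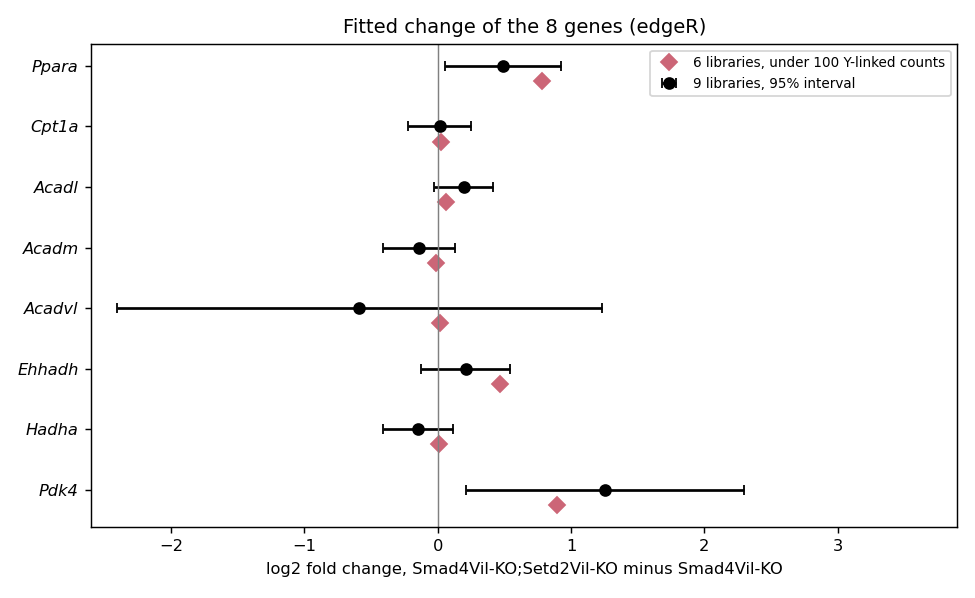
Log2 fold change of each of the 8 genes (Smad4Vil-KO;Setd2Vil-KO minus Smad4Vil-KO): black points with 95% intervals are from edgeR over 9 libraries, red diamonds from the 6 libraries with 100 or fewer Y-linked counts. The interval leaves out 0 for Ppara (0.054 to 0.93) and Pdk4 (0.21 to 2.30) before adjustment over all genes, it is widest for Acadvl, and the diamonds for Ppara and Ehhadh lie further right, at 0.79 and 0.47.

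The Smad4Vil-KO;Setd2Vil-KO replicate 1 had the lowest level of Cpt1a, Acadm, Ehhadh and Hadha of all 9 libraries and the lowest Ppara of its genotype. The 8 genes summed to 908 CPM there and to 1083 to 1191 CPM in the other 8 libraries. Replicates 1 and 2 were also the libraries with the smallest share of counts from the 13 genes of the mitochondrial genome, 5.62% and 6.29% against 8.12% to 10.3% elsewhere. Colonocyte markers, too, were lowest in Smad4Vil-KO;Setd2Vil-KO replicate 1, at 4790 CPM with Muc2 and 3120 CPM without it. The part of these in the levels of the 8 genes was not tested.

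Per kilobase of the principal transcript, the mean levels in Smad4Vil-KO mice followed the order Acadl 107 ± 9.26, Hadha 85.2 ± 4.0, Cpt1a 78.0 ± 6.35, Acadm 74.7 ± 5.36, Ehhadh 18.4 ± 1.31, Ppara 6.19 ± 0.978, Acadvl 2.95 ± 4.35 and Pdk4 1.02 ± 0.311 CPM per kb (SD, n = 4). Acadl lay above Hadha in every library. Cpt1a overlapped both Hadha and Acadm, so that its place in the order is within the spread, while Hadha lay above Acadm without overlap. Acadvl overlapped Pdk4, and in replicate 1, at 9.48 CPM per kb, it stood above the highest Ppara value of 7.04. Its mean, and with it its place above Pdk4, rested on that library. In Smad4Vil-KO;Setd2Vil-KO mice Acadl was again highest at 122 ± 15 CPM per kb and Cpt1a (78.7 ± 9.98) and Hadha (76.8 ± 12.6) were close (SD, n = 5). These levels depend on the length used: with all merged exons, Cpt1a, Hadha and Acadm had 44.0, 39.2 and 39.1 CPM per kb in Smad4Vil-KO mice.

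Across the 9 libraries, the levels of Ppara and Ehhadh varied together. Pearson's r of their log2 CPM was 0.938 (exact permutation p = 0.000333, two-sided, and adjusted p = 0.00934 over the 28 pairs of the 8 genes), and Spearman's rho was 0.867 (exact permutation p = 0.00451, adjusted p = 0.0631). Without the 2 libraries farthest from the median of Ppara r was 0.853, and without any single library it stayed between 0.913 and 0.955. Within the 6 libraries with few Y-linked counts r was 0.982 (exact permutation p = 0.00972, two-sided), and none is given over the 3 others, which are too few for a test. This r pools both genotypes, which differed in both genes over those 6 libraries, so that it holds that difference as well. Over deviations from the mean of each genotype r was 0.965 (n = 9).

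No other pair of the 8 genes passed the adjustment. Acadm and Hadha had r = 0.871 (exact permutation p = 0.0185, two-sided, adjusted p = 0.259), but rho was 0.133, and without the 2 libraries farthest from the median of Acadm r turned to -0.778. Acadm and Pdk4 had rho = -0.883 (exact permutation p = 0.00308, two-sided, adjusted p = 0.0631) and r = -0.650. Ppara and Hadha, the mitochondrial counterpart of Ehhadh, had r = 0.350 (exact permutation p = 0.377, two-sided), while over deviations from the mean of each genotype their r was 0.827 (n = 9). Without the 2 libraries farthest from the median of Ppara the pooled r was 0.235, and without Smad4Vil-KO;Setd2Vil-KO replicate 1 the r of deviations was 0.453, where that of Ppara and Ehhadh was 0.903. The difference between the coefficients of Hadha and Ehhadh was not tested.

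**Figure D3:**
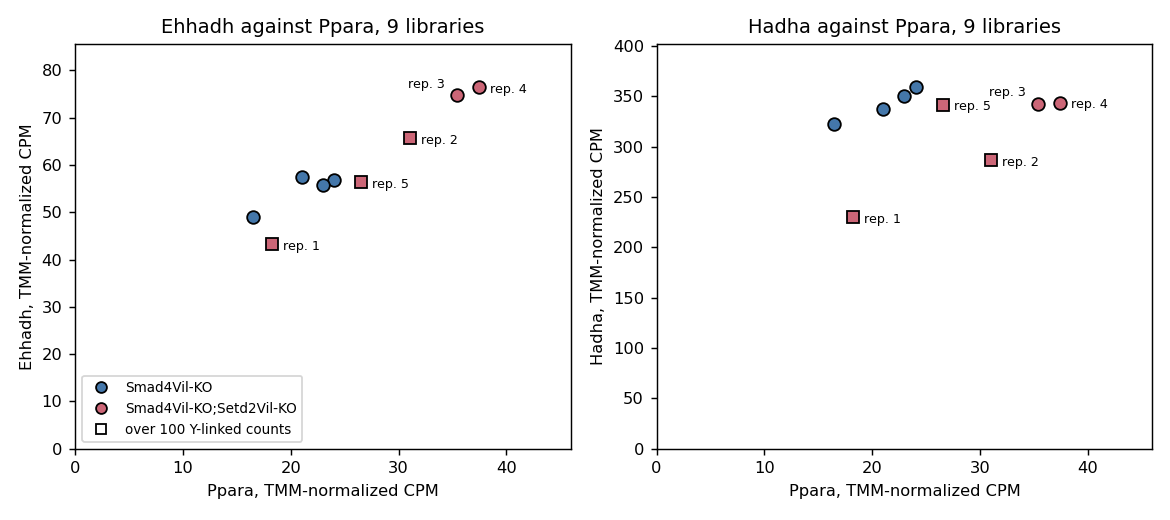
Ehhadh (left) and Hadha (right) against Ppara, all in TMM-normalized CPM, with 1 point per library; blue is Smad4Vil-KO, red is Smad4Vil-KO;Setd2Vil-KO with its replicate number, and squares are libraries with over 100 Y-linked counts. Ehhadh rises with Ppara over all 9 libraries (r = 0.938 on the log2 scale), while Hadha stays between 322 and 359 CPM in 7 libraries and is lower only in Smad4Vil-KO;Setd2Vil-KO replicates 1 and 2.

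Among all 14593 genes tested, the gene most like each of the 8 was found by the Pearson r of deviations from genotype means over the same 9 libraries, as a description. For Ppara this was Ces2c, a carboxylesterase gene, with r = 0.971, for Ehhadh Scp2-ps2 with r = 0.985, for Cpt1a Ubap1 with r = 0.961 and for Acadl Cd164 with r = 0.983. Acadm was nearest to Pigp (r = 0.993), Hadha to Trmt2b (r = 0.996), Pdk4 to Dhps (r = 0.973) and Acadvl to Gm8494 (r = 0.918). None of these was a gene of the lists below. No p is given, since each is the highest of many coefficients over 9 points that share libraries and depth.

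The other genes of the pathway were read from 8 lists with 138 genes, of which 113 passed the filter on low counts and 13 passed an adjusted p of 0.05 in edgeR's test, 8 higher and 5 lower in Smad4Vil-KO;Setd2Vil-KO mice. That is 11.5% of those tested, against 13.3% of all genes, and 6.76% of all genes were called higher and 6.54% lower. DESeq2 called 10% of all genes higher and 9.13% lower, limma-voom 9.6% and 10.4%, and 15.3% were past an unadjusted p of 0.05 in edgeR's test in each direction, against which the counts of the single lists are to be read. The share called in the pathway was thus near that of all genes, and the lists held both directions.

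**Figure D4:**
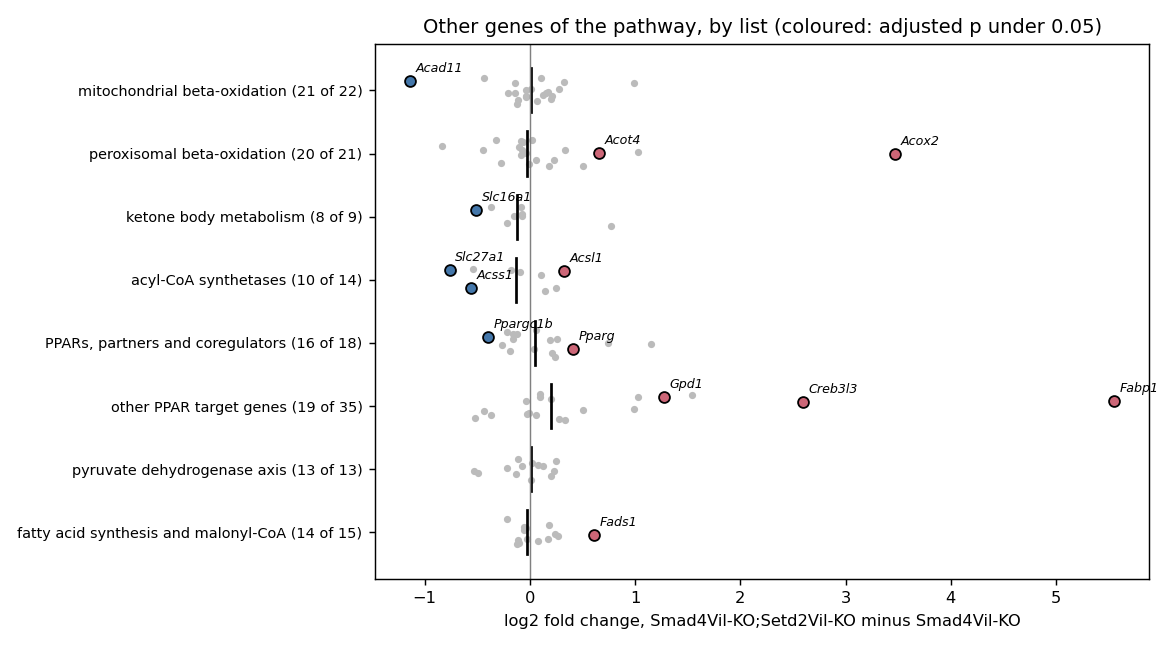
Log2 fold change (Smad4Vil-KO;Setd2Vil-KO minus Smad4Vil-KO) of the tested genes of each list, with the number tested of the number listed; named and coloured points have an adjusted p under 0.05, red higher and blue lower, and the black bar is the median of the list. The medians lie between -0.14 and 0.20, with single genes far from them; the Fabp1 point is a fitted value that depends on the prior count, for which the text gives a lower bound.

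In mitochondrial β-oxidation outside the 8 genes 1 of 21 tested genes fell, none rose in edgeR's test, and the median was 0.010. At an unadjusted p under 0.05 there were 2 higher and 2 lower, and DESeq2 and limma-voom each called 1 higher and 2 lower. Within the 6 libraries with few Y-linked counts 4 were called higher, Acad9, Acaa2, Decr1 and Slc22a5, named after their values were seen, and 1 lower, where 9.29% of all genes were called higher and 10.1% lower. The gene that fell was Acad11, a dehydrogenase of long-chain acyl-CoA (chr9:104063377-104127725), at 146, 133, 122 and 118 CPM in Smad4Vil-KO libraries and 24.2, 53.8, 69.2, 52.1 and 96.2 CPM in Smad4Vil-KO;Setd2Vil-KO libraries. Every Smad4Vil-KO;Setd2Vil-KO library was below every Smad4Vil-KO library, and Acad11 fell by 1.14 ± 0.29 on the log2 scale (adjusted p = 0.0272, edgeR). It lies on the chromosome of Setd2 (chr9:110532597-110618633). Acads and Hadh, which serve short chains, had the highest mean CPM over all 9 libraries among the uncalled genes of the list and differed by -0.11 ± 0.10 and -0.12 ± 0.15 (adjusted p = 0.476 and 0.614, edgeR).

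In peroxisomal β-oxidation 2 of 20 tested genes rose, none fell in edgeR's test, and the median was -0.022. At an unadjusted p under 0.05 there were 5 higher and 4 lower, DESeq2 called 3 higher and 2 lower, and limma-voom 5 and 2. Those 6 libraries gave 5 higher and 1 lower. Acox2, an oxidase of branched chains and bile acid intermediates (chr14:8225511-8259353), went from 0.320, 0.771, 0.736 and 1.03 CPM to 8.19, 6.89, 9.35, 8.40 and 6.74 CPM. The groups were far apart, by 3.47 ± 0.29 on the log2 scale (adjusted p = 7.2e-05, edgeR). Acot4, a peroxisomal thioesterase of a family of close paralogs (chr12:84038379-84048601), was at 6.70 to 8.77 CPM against 10.9 to 13.2 CPM and rose by 0.66 ± 0.13 (adjusted p = 0.0102, edgeR). The abundant Abcd3, a peroxisomal importer, was at 279 to 342 CPM against 259 to 348 CPM (adjusted p = 0.925, edgeR).

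Among the other PPAR target genes 3 of 19 tested rose, none fell in edgeR's test, and the median was 0.20, and 16 of the 35 listed were too low to test. Unadjusted, 7 higher and 2 lower had a p under 0.05, DESeq2 called 6 higher and 1 lower, and limma-voom 7 and 2. Within the same 6 libraries 7 were called higher and 1 lower. Fabp1, a fatty acid-binding protein of liver and small intestine (chr6:71199827-71205023), had at most 3 counts in each Smad4Vil-KO library and 61, 69, 42, 91 and 26 counts in Smad4Vil-KO;Setd2Vil-KO replicates 1 to 5. Against a floor of 3 counts per library it was at least 21.1-fold higher (adjusted p = 0.00050, edgeR). Creb3l3, a transcription factor that acts with PPARα in fasting (chr10:81084324-81098874), was at 2.63, 4.92, 3.86 and 3.80 CPM against 31.8, 45.9, 9.70, 24.2 and 3.95 CPM. Replicate 5 had the level of Smad4Vil-KO mice, and Creb3l3 rose by 2.60 ± 0.60 (adjusted p = 0.0187, edgeR).

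Gpd1, which makes glycerol 3-phosphate (chr15:99717515-99725005), rose by 1.28 ± 0.18 (adjusted p = 0.0022, edgeR) from 40.4 to 54.1 CPM to 88.7 to 154 CPM without overlap. Ucp2, a mitochondrial carrier and among the genes with the highest mean CPM of the list, was at 314 to 428 CPM against 321 to 428 CPM. Cyp4a14, Cyp4a31 and Cyp4a32, classical PPARα targets of liver and kidney, had no count in any library, which allows at most 3 counts in each, and Angptl4, Fgf21 and Cyp4a10 were too low to test. Vnn1, a pantetheinase, with 5.51 ± 2.92 CPM (SD, n = 4) against 16.0 ± 6.96 CPM (SD, n = 5), missed the threshold (adjusted p = 0.0553, edgeR). DESeq2 and limma-voom called it, and so did edgeR without the filter on low counts or without Smad4Vil-KO;Setd2Vil-KO replicate 5. It was also called with the replicate block and with either use of Y-linked counts, but not under the remaining alternatives. The block takes Smad4Vil-KO;Setd2Vil-KO replicate 5 out of the difference as well, so that its call is not separate from the call without that library. Vnn1, Angptl4, Fgf21 and Cyp4a10 were named after their values were seen.

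Fabp1 and Creb3l3 have their known home in small intestine and liver. The summed markers of small intestinal enterocytes were 968, 1333, 602, 1022 and 488 CPM in Smad4Vil-KO;Setd2Vil-KO replicates 1 to 5, against 436 to 510 CPM in Smad4Vil-KO mice. Replicates 1 to 4 were thus above the Smad4Vil-KO libraries and replicate 5 among them. This sum was lowest of its genotype in replicate 5, where Creb3l3 and Fabp1 were lowest too. Apob and Slc5a1 made up most of the sum and were not called (adjusted p = 0.119 and 0.0946, edgeR). Slc15a1 was lower, at 74.2 and 62.7 CPM on average, and not called. Apob, Slc5a1 and Slc15a1 were named after their values were seen. Hepatocyte markers summed to 29.0 to 44.5 CPM and 44.0 to 162 CPM, with Serpina1a at 0 in all libraries. Cps1 was higher, at 9.73 and 74.2 CPM on average, and without it the other 5 summed to 19.4 to 34.1 CPM against 12.8 to 30.9 CPM. The part of these in Fabp1, Creb3l3 and Acox2 was not tested. Of the adipocyte markers Lep and Retn were at 0 in all 9 libraries, and their sum was 8.32 to 11.0 CPM and 11.3 to 31.5 CPM. Cidec, a lipid droplet protein gene, was at 2.99 and 10.3 CPM on average (adjusted p = 0.0417, edgeR), and without it the other 6 summed to 6.07 to 8.01 CPM against 5.95 to 10.1 CPM.

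In ketone body metabolism 1 of 8 tested genes fell, none rose in edgeR's test, and the median was -0.12. At an unadjusted p under 0.05 there were 1 higher and 1 lower, DESeq2 called 1 higher and 1 lower, and limma-voom 0 and 1. Oxct1, which uses ketone bodies, differed by -0.078 ± 0.18 (adjusted p = 0.80, edgeR). Slc16a1, the transporter of butyrate, lactate and ketone bodies (chr3:104638668-104658462), fell by 0.51 ± 0.15 (adjusted p = 0.0449, edgeR) from 288 to 408 CPM to 172 to 294 CPM, with overlap.

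Of 10 tested acyl-CoA synthetases, which activate fatty acids, 1 rose and 2 fell, with a median of -0.14. There were 2 higher and 4 lower at an unadjusted p under 0.05, and DESeq2 and limma-voom each called 2 higher and 3 lower. Acsl1, the main long-chain enzyme and a PPAR target (chr8:46471037-46536051), rose by 0.33 ± 0.094 (adjusted p = 0.0439, edgeR) from 25.9 to 33.4 CPM to 34.7 to 39.5 CPM. Slc27a1, a fatty acid transport protein with synthetase activity (chr8:71568882-71587302), fell by 0.76 ± 0.11 (adjusted p = 0.0024, edgeR) from 31.1 to 40.2 CPM to 17.7 to 23.3 CPM. Both changed without overlap. Acss1, the mitochondrial acetyl-CoA synthetase (chr2:150618105-150668500), fell by 0.56 ± 0.15 (adjusted p = 0.0345, edgeR), while the abundant Acsl3 and Acsl5 differed by 0.11 ± 0.11 and 0.24 ± 0.075 (adjusted p = 0.533 and 0.0542, edgeR).

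Of 16 tested PPARs, partners and coregulators 1 rose and 1 fell, with a median of 0.053. Past an unadjusted p of 0.05 were 5 higher and 1 lower, DESeq2 called 2 higher and 1 lower, and limma-voom 1 and 2. Pparg (chr6:115360951-115490399), which in Smad4Vil-KO mice had 39.5 ± 5.27 CPM per kb (SD, n = 4) where Ppara had 6.19, was at 62.6, 67.6, 83.4 and 65.5 CPM against 83.4, 106, 102, 86.3 and 87.2 CPM and rose by 0.41 ± 0.11 (adjusted p = 0.0316, edgeR). Ppargc1b, a coactivator of mitochondrial genes, was at 98.1 to 110 CPM against 60.6 to 89.0 CPM and fell by 0.40 ± 0.11 (adjusted p = 0.0363, edgeR). The corepressors Ncor1 and Nrip1 differed by 0.042 ± 0.089 and 0.26 ± 0.098 (adjusted p = 0.783 and 0.105, edgeR). Ppard, named after its values were seen, had 20 to 33 counts in 8 libraries and 189 in Smad4Vil-KO;Setd2Vil-KO replicate 5.

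None of the 13 genes of the pyruvate dehydrogenase axis, on which Pdk4 acts, was called by edgeR. At an unadjusted p under 0.05 there were 3 of them, 1 higher and 2 lower, and DESeq2 and limma-voom each called 1, Pdhb, also named after its values were seen. Pdha1, the catalytic subunit, was at 309 to 332 CPM against 291 to 372 CPM, and Dld, its dihydrolipoamide dehydrogenase, at 209 to 222 CPM against 218 to 248 CPM (adjusted p = 0.62 and 0.255, edgeR). Of 14 tested genes of fatty acid synthesis, the opposite route, 1 rose and none fell in edgeR's test, nor did any lower gene pass an unadjusted p of 0.05 or the tests of DESeq2 and limma-voom. Fads1, the delta-5 desaturase (chr19:10182888-10196877), rose by 0.61 ± 0.16 (adjusted p = 0.0292, edgeR) from 35.7 to 48.4 CPM to 43.0 to 76.6 CPM, and Scd2 and Acly, with the highest mean CPM of the list over all 9 libraries, differed by 0.18 ± 0.18 and -0.12 ± 0.15 (adjusted p = 0.515 and 0.62, edgeR).

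**Figure D5:**
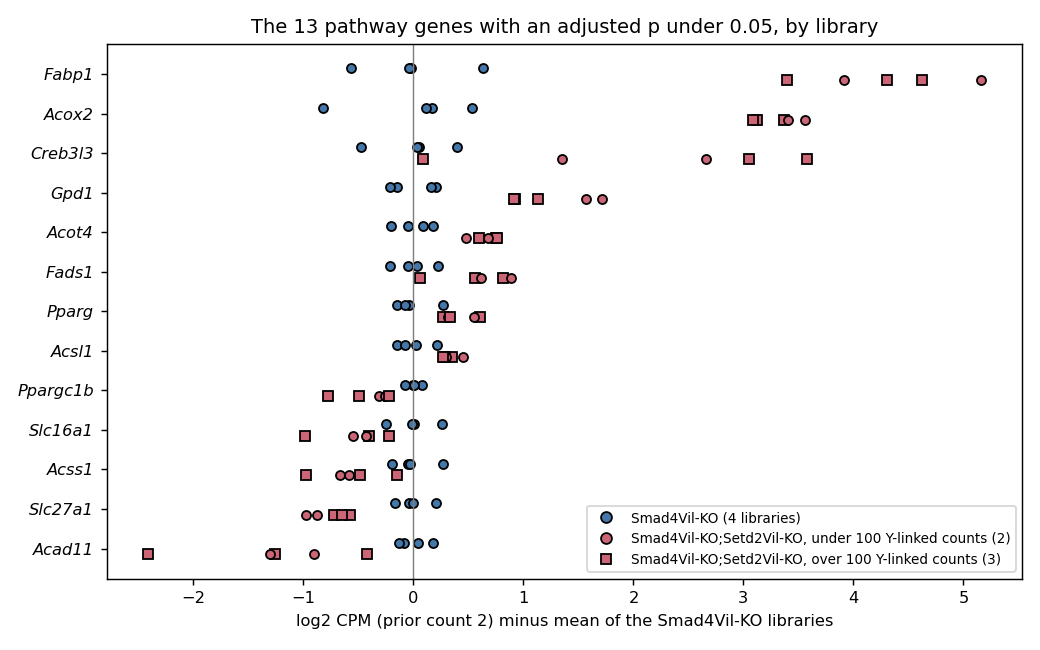
Log2 CPM (prior count of 2) of the 13 called pathway genes in each library, relative to the mean of the Smad4Vil-KO libraries (blue); Smad4Vil-KO;Setd2Vil-KO libraries are red, squares where Y-linked counts were over 100. Fabp1, Acox2, Gpd1 and Acot4 are higher and Acad11, Slc27a1 and Ppargc1b lower in all 5 Smad4Vil-KO;Setd2Vil-KO libraries, while Creb3l3 in replicate 5 lies among the Smad4Vil-KO libraries.

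The calls of Acox2, Fabp1, Gpd1, Slc27a1 and Acot4 held without each single library. The other 8 were lost without some of them. Acad11 had adjusted p from 0.0523 to 0.0728 (edgeR) without any one of Smad4Vil-KO replicates 1 to 4 or Smad4Vil-KO;Setd2Vil-KO replicates 2 and 4, and Creb3l3 from 0.0522 to 0.0611 without Smad4Vil-KO replicates 1, 3 or 4. Slc16a1, Acss1, Acsl1, Pparg, Ppargc1b and Fads1 reached 0.131, 0.103, 0.126, 0.0943, 0.0938 and 0.0901 (edgeR), each highest without Smad4Vil-KO replicate 1, apart from Acsl1 and Ppargc1b, where it was replicate 2. With a term for Y-linked counts, 5 of the 13 kept their call (Acox2, Fabp1, Gpd1, Slc27a1 and Fads1), and within the 6 libraries with at most 100 such counts 12 did, all but Acsl1 (adjusted p = 0.0563, edgeR).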

How the data were processed

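IECs of 4 Smad4Vil-KO and 5 Smad4Vil-KO;Setd2Vil-KO mice were profiled by RNA-seq after Trizol extraction and Illumina mRNA library preparation. The authors deposited whole-number counts per gene symbol for each library, without normalization or pooling. The submitters' processing notes name HISAT2 2.0 and mm10; the counting program, annotation and use of strand are not given in the sources used here. Groups and replicate numbers were read from the sample labels. The labels number the libraries without naming animals, so that p-values measure the spread between these libraries, part of which may be technical.

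Genes were kept with filterByExpr by genotype (14593 of 46095 rows; 27 rows with symbols turned into dates stayed in the totals), normalized with TMM and tested with edgeR 4.0.16 (R 4.3.3, glmQLFit and glmQLFTest) over all 9 libraries without covariates, with Benjamini-Hochberg adjustment over all genes tested. Calls had an adjusted p under 0.05. CPM values are TMM-normalized, and the SE was taken as the size of the log2 fold change divided by the square root of F. A floor of 3 counts per library was used for genes at or under it throughout a genotype. The method was tested on simulated data. Alternatives were DESeq2 1.42.0, limma-voom 3.58.1 with quality weights, other size factors and filters, robust dispersion, each library left out, replicate number as a block, and Y-linked counts as a term or as a limit (at most 100). The term marked the libraries with over 100 such counts, all of 1 genotype.

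The members, lists and alternatives were chosen with earlier results of these data known. Named genes were the 8 members, Setd2 and Smad4, the called genes of each list and up to 2 of its most abundant others, and the gene most like each member; others are said to have been named after their values were seen. Some genes that this rule would name are counted in their lists and not reported here. Gene bounds and exons are from GENCODE M21, promoters from RefSeq GRCm38.p6 (32851 starts), the build of mm10.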

Additional observations from a re-analysis of the deposited data

Results flagged for a closer look

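Of 72 groups of libraries (36 named genes in 2 genotypes), 4 held 1 library whose distance from its nearest neighbour exceeded Dixon's 95% limit, and chance alone does so in about 1 of 20 groups. Acadvl was at 20.6 CPM in Smad4Vil-KO replicate 1, with the other 3 libraries at 1.42 to 1.98 CPM, and at 10.7 CPM in Smad4Vil-KO;Setd2Vil-KO replicate 3, with the other 4 at 2.09 to 4.05 CPM. Smad4 was at 92.6 CPM in the same Smad4Vil-KO replicate 1, with the others at 54.2 to 55.3 CPM. Abcd3 was at 342 CPM in Smad4Vil-KO replicate 2 (others 279 to 287 CPM).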

How the results depend on the processing

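None of the 8 genes was called lower under any of the 19 alternatives. Called higher were Pdk4 with DESeq2 (1 gene, adjusted p = 0.0331), Ppara with limma-voom (1 gene, adjusted p = 0.0305), Ppara with the term for Y-linked counts (1 gene), and Ppara and Ehhadh in the 6 libraries where such counts were 100 or fewer (2 genes). Leaving out single libraries gave 0 to 1 genes. Of the pathway genes, 8 were called higher and 5 lower. DESeq2 gave 15 and 9, limma-voom 15 and 11, those 6 libraries 21 and 11, and the term for Y-linked counts 8 and 2. In percent of those tested these were 21.4, 23, 28.1 and 8.85 of the pathway genes, where 19.2, 20, 19.4 and 8.81 of all genes were called. Leaving out single libraries gave 4 to 15 higher and 1 to 7 lower. The causes were not tested. DESeq2 gave no p for Acadvl, and Acox2 and Fabp1 were not tested with at least 10 counts in every library. The scaling moved the median of all genes by at most 0.034.

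The replicate numbers did not pair the libraries (correlation of deviations -0.096, -0.10, 0.020 and 0.088 for numbers 1 to 4). With the replicate block, 1 of the 8 genes was called higher (Pdk4, 1.40, adjusted p = 0.0216), and Slc16a1 and Acsl1 lost their call (adjusted p = 0.0665 and 0.0924, edgeR). Number 5 occurs only in Smad4Vil-KO;Setd2Vil-KO mice, so that the block takes this library out of the difference between genotypes. Pdk4 was also called when this library was left out, and its call with the block is not a separate result. The block turned Cpt1a to -0.030, Acadvl to 0.38 and Smad4 to -0.14.

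Log2 fold changes also changed sign elsewhere. Without the filter Cpt1a was -0.0037. With limma-voom Acadvl was 0.39, Smad4 -0.18, Oxct1 0.061 and Ucp2 0.054. With the term for Y-linked counts Acadvl was 0.012, Hadha 0.0035, Smad4 -0.71, Hadh 0.035, Oxct1 0.19 and Ucp2 0.084. In the 6 libraries with few such counts they were 0.018, 0.0080, -0.70, 0.040, 0.19 and 0.089. Both sets of estimates rest on the same libraries. Ucp2 was 0.0011 with DESeq2's size factors, 0.00099 with DESeq2, 0.026 with library size alone and 0.0036 with at least 10 counts. Over single libraries left out, the ranges were -0.022 to 0.089 for Cpt1a, -1.27 to 1.35 for Acadvl, -0.11 to 0.37 for Smad4, -0.026 to 0.090 for Abcd3, -0.15 to 0.042 for Oxct1, -0.092 to 0.059 for Ucp2, -0.20 to 0.085 for Acly and -0.0033 to 0.091 for Ncor1. Of 682 values of 36 named genes (the 8, Setd2, Smad4 and 26 pathway genes) under the alternatives, 568 kept direction and side of the threshold, 57 lost and 14 gained a call, and 43 changed sign. Counts were lowest, and relative counting error highest, for Acadvl and Pdk4 among the 8 genes, with 24 to 321 and 31 to 263 counts per library. The part of counting error in their spread was not tested.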
